A study of Mus musculus with 6 samples.

Results

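The genes described here are 9 members of the mouse Ms4a family (Ms4a1, Ms4a3, Ms4a4b, Ms4a4c, Ms4a6b, Ms4a6c, Ms4a6d, Ms4a7 and Ms4a8a), measured by 17 of the 45101 probe sets of an Affymetrix array, a probe set being a group of short oligonucleotides that reads 1 transcript region. Every probe set whose platform annotation names one of these genes was taken, and each was kept apart. The 9 genes were selected on the family name with their GFP_plus minus GFP_min differences in these arrays already known, so the differences of the members are given as a description and without a test.

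The arrays hold RNA of myeloid cells sorted from the femurs and tibias of female mice of C57BL/6 background, all carrying HdcGFP, a green fluorescent reporter of Hdc, the gene of the enzyme that makes histamine. Both groups were gated on CD11b and Gr1, surface antigens of granulocytes and monocytes. GFP_plus (3 samples) was the reporter-positive or high fraction, labelled HdcGFP+/hiCD11b+Gr1+, and GFP_min (3 samples) the negative or low fraction, labelled HdcGFP-/loCD11b+Gr1+. The labels give no age, no treatment and no count of mice, so the spread between samples may be technical. The description of GFP_min replicate b reads Gr1- where its sorted-cell label reads Gr1+, and values without it are given below.

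MS4A proteins cross the membrane with 4 helices and lie at the surface or on inner membranes of blood cells, where several sit beside immune receptors and shape their signals. The best known are CD20, which marks B cells, and the beta chain of the IgE receptor, which marks mast cells and basophils. Mice have more Ms4a4 and Ms4a6 genes than humans do, and several of these are known from monocytes, macrophages and T cells.

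The array medians lay between 2.82 and 2.88 on the log2 scale, and the median difference over the 22956 tested probe sets was 0.041. Testing was limited to probe sets brighter than the array median on 3 or more of the 6 arrays. By its brighter probe set Hdc, the basis of the sort, was 12.01, 12.06 and 11.95 in GFP_plus, against 11.22, 11.16 and 11.19 in GFP_min, and Itgam, which encodes CD11b, averaged 11.84 ± 0.13 in GFP_plus and 11.58 ± 0.23 in GFP_min (SD, n = 3 each). Of the tested probe sets, 4971 (21.7%) were called higher and 5260 (22.9%) lower in GFP_plus (limma, adjusted p under 0.05). Higher ones made up 48.6% of the calls on the deposited scale, 56.9% after quantile normalization, 73.0% with arrays centred on the median of tested probe sets, 89.0% centred on ribosomal protein genes and 8.53% centred on the bacterial poly-A control RNAs. These centrings add 0.20, 0.53 and −0.41 to every difference.

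**Figure D1:**
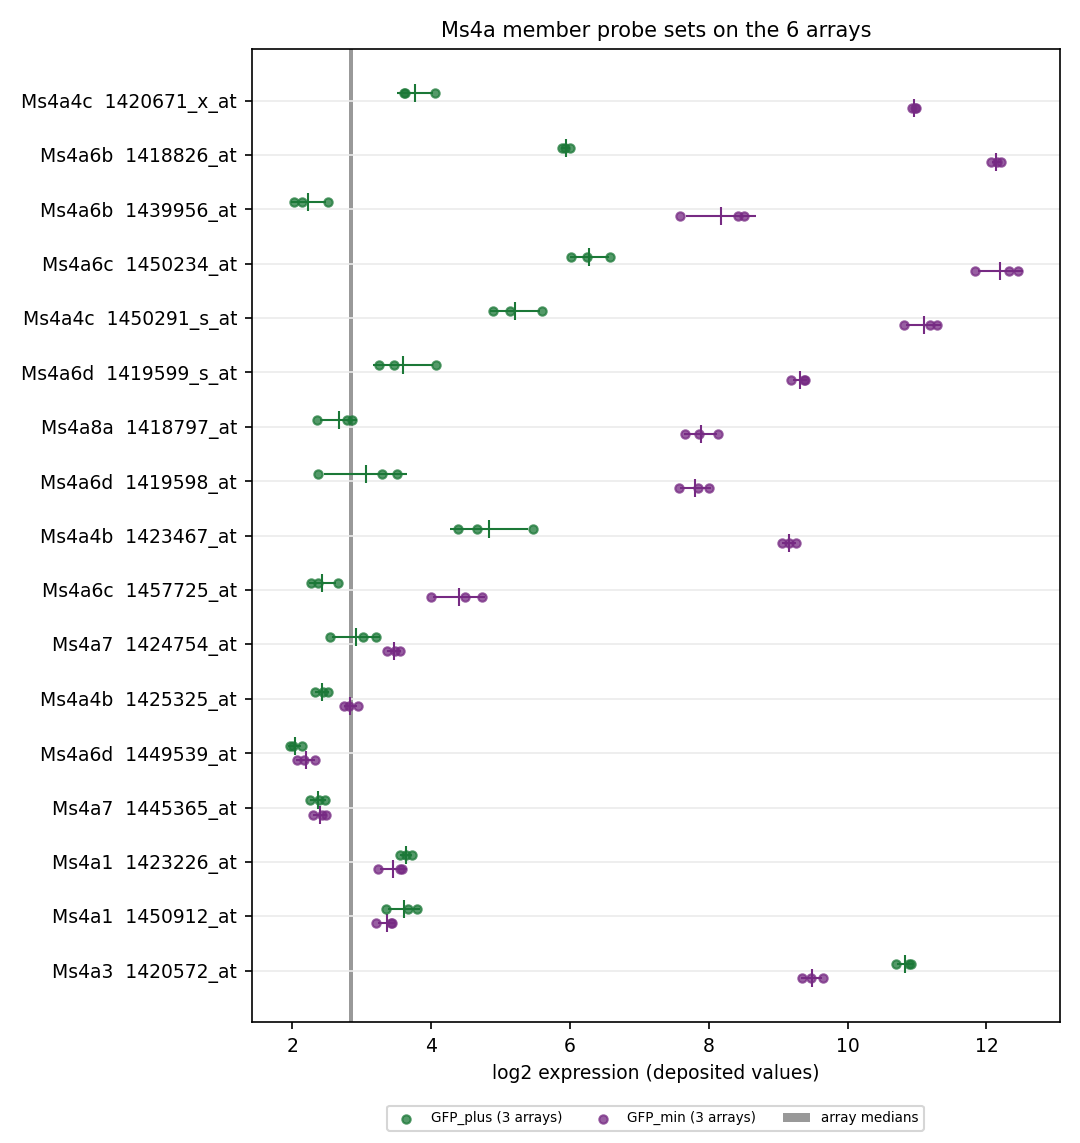
Log2 expression of the 17 member probe sets (rows, ordered by difference) on the 6 arrays. Points are arrays, upright ticks with bars are means ± SD of 3 arrays, GFP_plus is drawn above GFP_min, and the grey band spans the array medians; in 9 probe sets of 6 genes GFP_plus lies at least 3 log2 below GFP_min, and Ms4a3 at the foot lies above it.

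Of the 17 member probe sets, 12 had all GFP_plus arrays below all GFP_min arrays, 1 had them above, and 4 overlapped. Over all tested probe sets the shares without overlap were 27.2% below and 28.1% above. The 17 also include 3 probe sets that were not tested, of which Ms4a4b 1425325_at is among the 12, so the sets differ. The median difference of the 17 was −4.33, against −1.26 without the probe sets ending in _s_at or _x_at and −3.54 with the probe sets of a gene averaged. In 9 probe sets of 6 genes GFP_plus was lower by at least 3 log2, which 1.08% of tested probe sets were. The level filter passed 14 of the 17, of which 1439956_at, 1457725_at and 1418797_at passed through their GFP_min arrays alone.

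The promoters of 4 members are printed first, 3 of genes that were far lower in GFP_plus and 1 of the gene that was higher. The windows of Ms4a6c and Ms4a8a, also far lower, and of Ms4a7, which differed little, are not printed. They run from 250 bases before to 50 after the start site, 5′ to 3′ on the gene's strand, from RefSeq on GRCm38.p6. Capitals mark GAGGAA, the core that the myeloid factor PU.1 is known to bind, and TTGCNNAA, a form of the C/EBP site, both searched on both strands. Ms4a4c lies at chr19:11407411-11407710 (+), Ms4a4b at chr19:11443308-11443607 (+), Ms4a6b at chr19:11518309-11518608 (+) and Ms4a3 at chr19:11640802-11641101 (−).
Ms4a4c: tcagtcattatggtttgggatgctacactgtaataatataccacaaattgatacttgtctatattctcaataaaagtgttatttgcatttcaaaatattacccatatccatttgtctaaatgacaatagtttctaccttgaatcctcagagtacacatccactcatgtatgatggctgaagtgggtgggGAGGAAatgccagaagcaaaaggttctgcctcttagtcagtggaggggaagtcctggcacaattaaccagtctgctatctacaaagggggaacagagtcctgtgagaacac
Ms4a4b: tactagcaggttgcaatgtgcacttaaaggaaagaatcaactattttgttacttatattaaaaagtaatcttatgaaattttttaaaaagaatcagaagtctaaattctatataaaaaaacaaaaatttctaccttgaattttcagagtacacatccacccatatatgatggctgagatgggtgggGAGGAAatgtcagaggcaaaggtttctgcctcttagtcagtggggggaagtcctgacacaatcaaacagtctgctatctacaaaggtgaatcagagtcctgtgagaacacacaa
Ms4a6b: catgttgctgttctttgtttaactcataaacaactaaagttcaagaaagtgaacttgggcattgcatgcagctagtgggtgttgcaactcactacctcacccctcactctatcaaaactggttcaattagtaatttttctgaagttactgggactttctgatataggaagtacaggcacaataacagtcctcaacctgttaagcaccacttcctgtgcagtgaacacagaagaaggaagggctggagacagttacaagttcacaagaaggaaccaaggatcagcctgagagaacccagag
Ms4a3: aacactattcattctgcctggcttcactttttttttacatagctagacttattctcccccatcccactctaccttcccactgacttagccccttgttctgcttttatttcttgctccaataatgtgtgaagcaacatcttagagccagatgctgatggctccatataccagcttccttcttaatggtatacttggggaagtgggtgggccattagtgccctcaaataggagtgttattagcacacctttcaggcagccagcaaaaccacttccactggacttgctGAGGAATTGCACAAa

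The Ms4a4c and Ms4a4b promoters were 73.8% identical over 321 alignment columns, gaps counted as columns. The other pairs of member promoters of different genes ranged from 44.6% to 53.6%. Because gaps count as columns, this measure falls when related windows are offset, so a low value does not show unrelated promoters. Ms4a6c and Ms4a6b had 197 identical bases over 377 columns (52.3%), yet their windows share long identical runs at shifted positions. Both Ms4a4 promoters hold GAGGAA just before the start site, beginning at base −61 in Ms4a4c and −64 in Ms4a4b. The Ms4a6b window holds none of the motifs searched. In Ms4a3 GAGGAA begins at base 36 of the transcript, and TTGCACAA follows without overlap at base 42. RefSeq windows were matched for 7 of the 9 members, 8 windows in all, of which 4 hold GAGGAA against 28.3% of 32851 mouse promoter windows. The 4 are those of Ms4a4c, Ms4a4b and Ms4a3 and 1 window of Ms4a7, where GAGGAA begins at base 44 of the transcript. The windows of Ms4a6c and Ms4a8a hold none of the motifs searched. TTGCNNAA was found in 1 of the 8 against 10.8%, and a composite ETS and IRF site in 0 against 2.72%. A match describes the letters only.

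Among the members, the Ms4a4 genes held the largest difference. Ms4a4c, a close paralogue of Ms4a4b, was 3.62, 4.06 and 3.61 in GFP_plus, against 10.93, 10.97 and 10.98 in GFP_min, by probe set 1420671_x_at. This is 147-fold lower in GFP_plus, a difference of −7.20, and 0 tested probe sets with 1 gene symbol had a lower one. The second Ms4a4c probe set, 1450291_s_at, was 4.89, 5.60 and 5.14 in GFP_plus, against 11.18, 10.81 and 11.29 in GFP_min, a difference of −5.89. The endings _x_at and _s_at mark probe sets whose oligonucleotides can match related transcripts, so part of this signal may belong to another Ms4a4 gene.

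Ms4a4b, known from T cells, was 4.66, 5.46 and 4.38 in GFP_plus, against 9.26, 9.06 and 9.16 in GFP_min, by 1423467_at. The groups lay far apart, 20.1-fold, although replicate b of GFP_plus stood higher than the other GFP_plus arrays. The other Ms4a4b probe set, 1425325_at, stayed near or under the array medians in both groups (2.32 to 2.52 in GFP_plus and 2.75 to 2.94 in GFP_min) and was not tested.

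The 3 Ms4a6 genes were all much lower in GFP_plus. Ms4a6b, described in mouse T cells as a partner of the receptor GITR, was 5.88, 6.00 and 5.93 in GFP_plus, against 12.07, 12.21 and 12.15 in GFP_min, by 1418826_at. That is a 73.9-fold lower level with SDs of 0.06 and 0.07 (n = 3 each). Its second probe set, 1439956_at, was 2.52, 2.14 and 2.03 in GFP_plus, below the median of each array, against 8.42, 7.59 and 8.50 in GFP_min. Against the array medians as the floor this is at least 39.6-fold lower.

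Ms4a6c was 6.58, 6.25 and 6.01 in GFP_plus, against 12.45, 11.83 and 12.32 in GFP_min, by 1450234_at, a 60.6-fold lower level. Its dimmer probe set 1457725_at averaged 2.43 ± 0.20 in GFP_plus, below every array median, and 4.40 ± 0.38 in GFP_min (SD, n = 3 each), which is at least 2.91-fold lower. Both Ms4a6c probe sets had the same direction and differences of −5.92 and −1.97.

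Ms4a6d, a macrophage gene whose protein restrains inflammasome output in mice, was 3.46, 3.25 and 4.07 in GFP_plus, against 9.37, 9.19 and 9.38 in GFP_min, by 1419599_s_at. By 1419598_at it was 3.50, 2.37 and 3.29 in GFP_plus, against 7.85, 7.57 and 8.0 in GFP_min. The levels in GFP_plus were 52.7-fold and 27.1-fold lower, and GFP_plus replicate b was the lowest array in both. The third probe set, 1449539_at, lay below the median of all 6 arrays.

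Ms4a8a, reported in alternatively activated macrophages, was 2.78, 2.36 and 2.86 in GFP_plus, below the median of each array, against 7.66, 8.13 and 7.86 in GFP_min. Its level was at least 32.5-fold lower in GFP_plus. Ms4a8a has 1 probe set here, so no second reading exists.

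Ms4a7, known from macrophages, differed little. Probe set 1424754_at was 3.21, 3.01 and 2.54 in GFP_plus, against 3.48, 3.55 and 3.36 in GFP_min, and 1445365_at lay below the median of all 6 arrays. The first difference, −0.55, shrank to −0.018 with arrays centred on ribosomal protein genes.

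Ms4a1, which encodes CD20, was close to the array medians and overlapped between the groups. By 1423226_at it was 3.73, 3.64 and 3.55 in GFP_plus, against 3.23, 3.58 and 3.55 in GFP_min, and by 1450912_at 3.35, 3.80 and 3.66 in GFP_plus, against 3.42, 3.21 and 3.44 in GFP_min. Its differences of 0.18 and 0.25 turned to −0.22 and −0.16 with poly-A centring.

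Ms4a3 (HTm4) was the member that went the other way. It marks granulocyte and monocyte progenitors, and its human protein binds a phosphatase that acts on cell cycle kinases. Ms4a3 was 10.88, 10.70 and 10.92 in GFP_plus, against 9.34, 9.64 and 9.47 in GFP_min, a 2.55-fold higher level. Its difference of 1.35 ranged from 0.95 with poly-A centring to 1.88 with ribosomal centring. Of all tested probe sets 1.90% were higher by at least 1 log2.

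Without GFP_min replicate b the differences were −7.19 and −6.03 for Ms4a4c, −6.18 and −6.23 for Ms4a6b, −6.10 and −1.93 for Ms4a6c, and −4.88 and −5.78 for the tested probe sets of Ms4a6d. They were −4.38 for the tested probe set of Ms4a4b, −5.10 for Ms4a8a, −0.50 for that of Ms4a7, 0.25 and 0.17 for Ms4a1 and 1.43 for Ms4a3. The 3 probe sets too dim to be tested had −0.45 (Ms4a4b), −0.16 (Ms4a6d) and −0.084 (Ms4a7). For the 10 probe sets lower by at least 1 log2, the sign was the same under each of the 15 other settings tried. Those settings could hardly reverse differences of this size between groups that do not overlap. In Ms4a4b, Ms4a6b, Ms4a6c, Ms4a6d and Ms4a7 the dimmest probe set of the gene gave the smallest difference, and in Ms4a4c and Ms4a1 the dimmer one gave the larger.

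**Figure D2:**
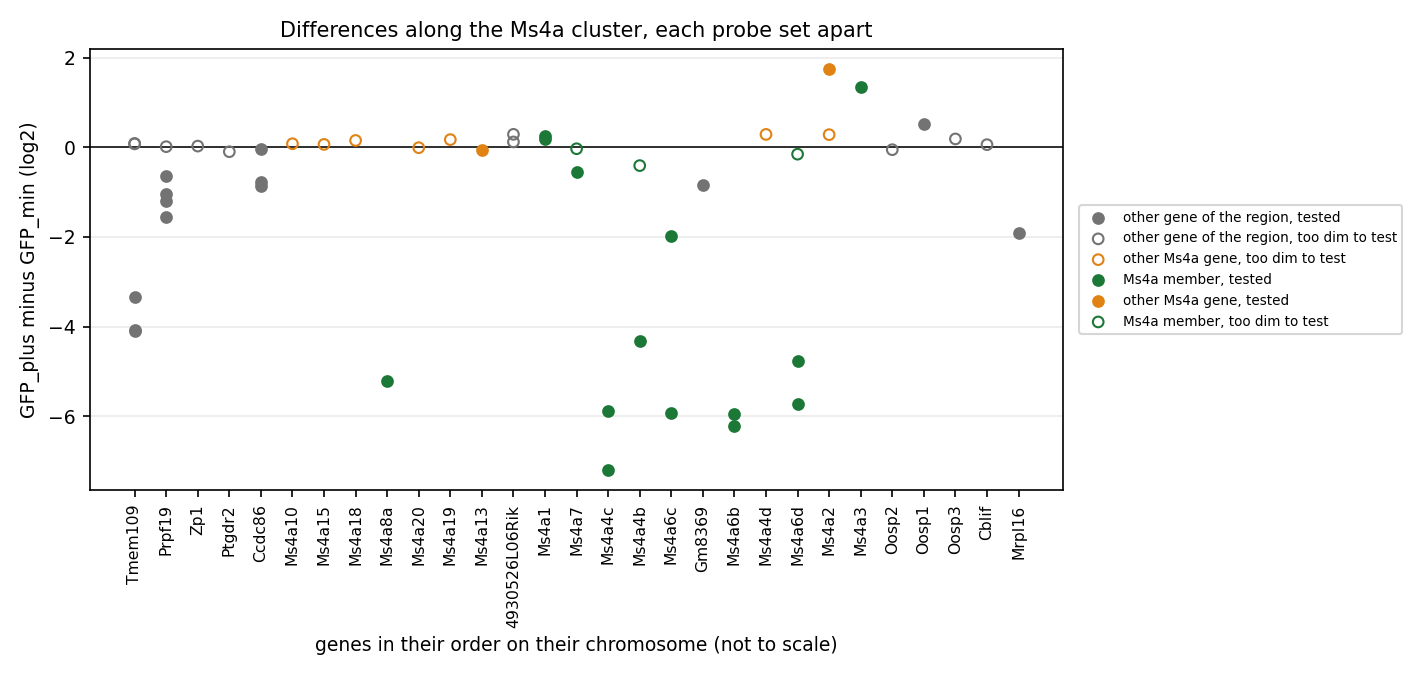
GFP_plus minus GFP_min in log2 (vertical axis) for each probe set of the Ms4a genes and of other genes of the region, in their order along chromosome 19 and not to scale. Filled points were tested and open ones were too dim; the members from Ms4a4c to Ms4a6d have differences of −4.33 to −6.21 in the brightest probe set of each gene, between Ms4a1 and Ms4a7 near 0 on one side and Ms4a2 and Ms4a3 above 0 on the other.

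RefSeq places all 21 Ms4a genes of its table in 1 region of chromosome 19, with 9 genes of other names between the outermost members, Ms4a8a and Ms4a3. Ms4a4c, Ms4a4b, Ms4a6c, Ms4a6b and Ms4a6d, with large negative differences, lie in that order, with Gm8369 between Ms4a6c and Ms4a6b and Ms4a4d between Ms4a6b and Ms4a6d, and Ms4a2 and Ms4a3 come next. Ms4a8a lies apart from them, beyond Ms4a1. Ms4a4d, inside the stretch, was 2.52, 2.55 and 2.92 in GFP_plus, against 2.34, 2.32 and 2.47 in GFP_min, too dim to be tested.

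The other genes of the region were tested with limma on all probe sets, since the choice of members did not use them. Of 12 genes with a probe set, 2 lying among the Ms4a genes and 5 on each side, 6 were tested. Of these 5 were lower in GFP_plus and 1 higher, with a median of −0.85. Gm8369 passed the level filter through its GFP_min arrays alone and Oosp1 through its GFP_plus arrays alone, which favours the direction of each call. With the level filter on all 6 arrays 4 genes were lower and 0 higher. Tmem109, at one outer edge, fell to 5.74 ± 0.23 in GFP_plus, against 9.08 ± 0.25 in GFP_min (−3.34, SE 0.16, adjusted p = 1.84e-07). Mrpl16, a mitochondrial ribosomal protein gene at the other edge, fell by 1.92 (adjusted p = 1.91e-06), and the splicing factor gene Prpf19 fell by 0.63 (adjusted p = 3.69e-05) in its brightest probe set. The other tested Prpf19 probe sets, also called lower, had larger differences of −1.19, −1.03 and −1.55. Gm8369, which lies between Ms4a6c and Ms4a6b, was at least 1.43-fold lower (adjusted p = 0.000440), below the array medians in GFP_plus. Ccdc86 fell by 0.86 (adjusted p = 0.00169), a call shared by 2 of its 3 tested probe sets. Oosp1, an oocyte gene near Ms4a3 on its far side, was at least 1.23-fold higher (adjusted p = 0.00180). In the brightest tested probe set of each gene, the calls of Prpf19 and Ccdc86 were lost with ribosomal centring and that of Oosp1 with poly-A centring. Over all tested probe sets 22.9% were called lower.

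**Figure D3:**
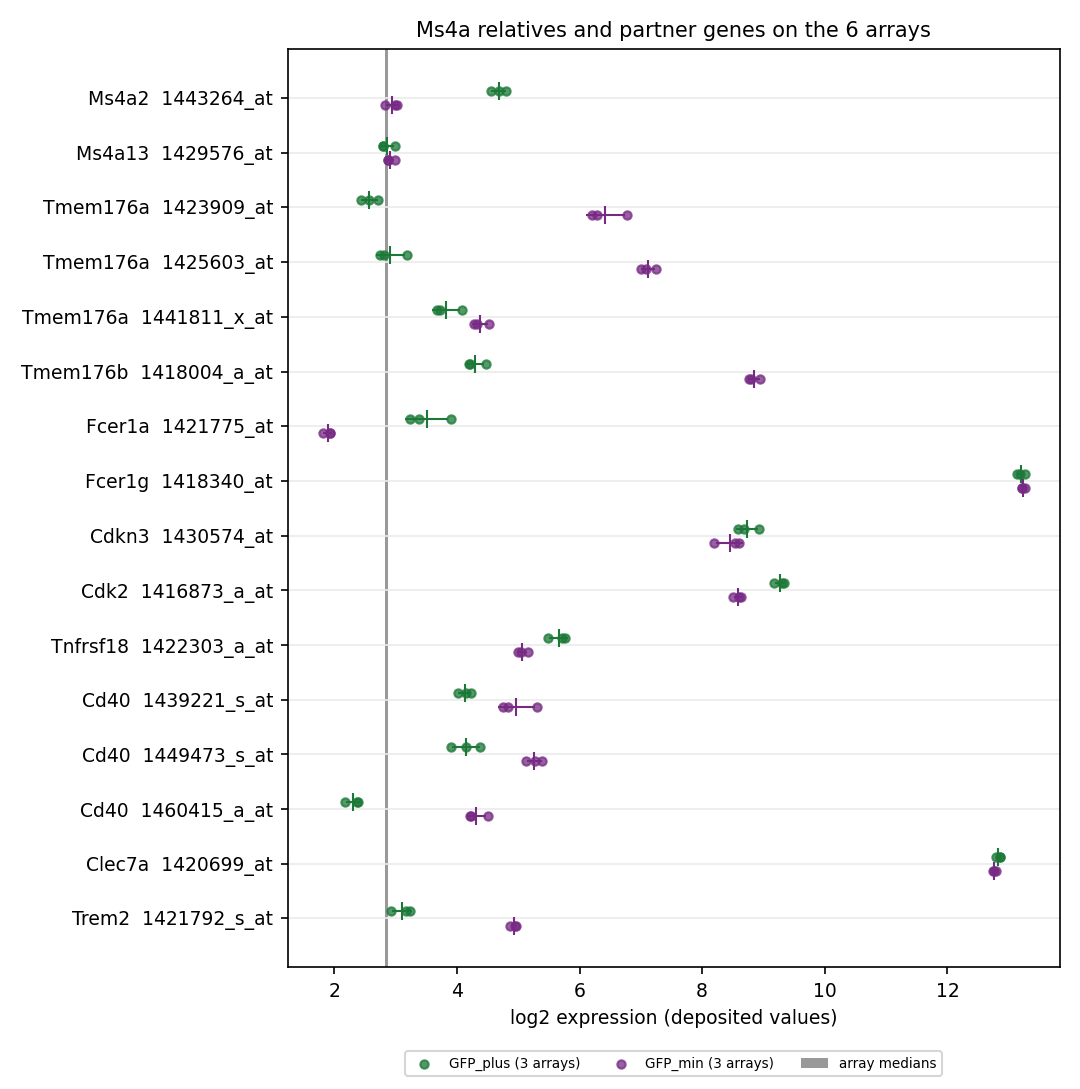
Log2 expression of the tested probe sets of Ms4a relatives and of genes of MS4A protein partners on the 6 arrays, drawn as means ± SD of 3 arrays with the arrays as points, GFP_plus above GFP_min. The Tmem176 rows lie lower in GFP_plus and the rows of Ms4a2 and Fcer1a higher, while Fcer1g and Clec7a nearly coincide.

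Of 13 listed relatives of the members, 9 had a probe set and 4 were tested, of which 2 were lower and 1 higher. Tmem176b, an MS4A-related membrane protein that acts as a cation channel in dendritic cells and macrophages, was 4.47, 4.19 and 4.21 in GFP_plus, against 8.80, 8.95 and 8.77 in GFP_min (−4.56, SE 0.13, limma adjusted p = 5.06e-09). Its neighbour and partner Tmem176a, which lies outside the Ms4a cluster, was 3.18, 2.74 and 2.81 in GFP_plus, against 7.01, 7.24 and 7.09 in GFP_min (−4.21, SE 0.16, adjusted p = 3.92e-08). All 3 Tmem176a probe sets were called lower. Ms4a13 was 2.86 ± 0.12 in GFP_plus and 2.91 ± 0.06 in GFP_min (SD, n = 3 each, limma adjusted p = 0.676).

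Ms4a2, beta subunit of the IgE receptor, lies beside Ms4a3. It was 4.80, 4.56 and 4.69 in GFP_plus, against 2.99, 3.02 and 2.82 in GFP_min (1.74, SE 0.13, limma adjusted p = 3.47e-06). Ms4a4d, Ms4a10, Ms4a15, Ms4a18, Ms4a20 and Ms4a19, the last not on the list, were too dim to be tested.

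Of 9 genes of known MS4A partners, 8 were tested, and 3 were higher, 2 lower and 3 did not pass, with a median of 0.18. The alpha chain of the IgE receptor, Fcer1a, was at least 1.60-fold higher in GFP_plus (limma adjusted p = 2.44e-05), its GFP_min arrays all being dimmer than their medians. Fcer1a thus passed the level filter through its GFP_plus arrays alone. The gamma chain Fcer1g, which other Fc receptors use too, was 13.20 ± 0.06 in GFP_plus and 13.23 ± 0.03 in GFP_min (limma adjusted p = 0.543).

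Cdk2, a kinase that the Ms4a3 partner phosphatase acts on, rose by 0.68 (limma adjusted p = 0.000135), and that phosphatase, Cdkn3, was 8.73 ± 0.18 in GFP_plus and 8.45 ± 0.21 in GFP_min (adjusted p = 0.0986). Tnfrsf18, which encodes GITR, rose by 0.59 (adjusted p = 0.00694). The calls of Cdk2 and Tnfrsf18 were lost with poly-A centring.

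Trem2, a lipid receptor of macrophages tied to MS4A genes by human genetics, fell by 1.82 (limma adjusted p = 3.55e-06). Cd40, found near CD20 in B cell membranes, fell by 1.12 (adjusted p = 0.000298), with all 3 of its tested probe sets called lower. Clec7a, which encodes Dectin-1, a partner of human MS4A4A, was 12.83 ± 0.03 in GFP_plus and 12.77 ± 0.02 in GFP_min (adjusted p = 0.176).

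**Figure D4:**
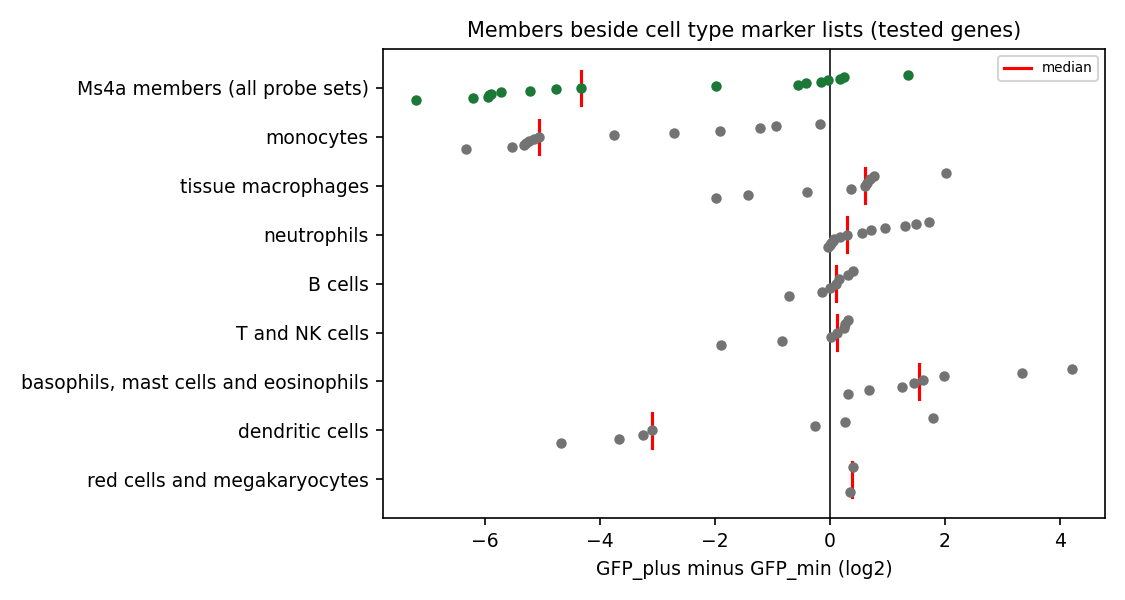
GFP_plus minus GFP_min in log2 (horizontal axis) for all 17 member probe sets and for the tested genes of 8 cell type marker lists, 1 point per probe set or gene, with the median as a red bar. The members spread from −7.20 to 1.35, and the list medians run from −5.05 for monocyte genes to 1.54 for basophil, mast cell and eosinophil genes.

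Since several members are markers of single cell types, 8 marker lists were set beside them. In sorted bulk cells a smaller share of a cell type and less RNA per cell cannot be told apart. Of 13 tested monocyte genes 12 were lower and 0 higher in GFP_plus by limma (0 higher at an unadjusted p under 0.05), with a median of −5.05. Their mean level per array ran from 7.56 to 7.63 in GFP_plus and from 11.31 to 11.36 in GFP_min. Irf8, a transcription factor that directs monocyte fate, fell by 5.05 (SE 0.11, adjusted p = 8.53e-10), the matrix gene Fn1 fell by 5.23 (7.19e-11), S100a4 fell by 5.33 (1.96e-10) and the clotting factor gene F13a1 fell by 3.76 (4.89e-10). The Ms4a4 and Ms4a6 genes differed in the same direction between the same arrays, and the part of monocyte content in their differences was not tested.

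Tissue macrophage genes did not share a direction: of 9 tested, 5 were higher and 2 lower, the median being 0.62, with mean levels of 5.47 to 5.59 in GFP_plus and 5.37 to 5.47 in GFP_min. Vcam1, an adhesion molecule of marrow macrophages, rose by 2.02 (limma adjusted p = 1.10e-06) and the iron exporter Slc40a1 by 0.64 (3.12e-05, lost with poly-A centring), while the mannose receptor Mrc1 fell by 1.98 (1.00e-05) and Adgre1, the F4/80 gene, fell by 1.43 (2.56e-06). For Vcam1 2 of 3 tested probe sets shared the call. Ms4a7 lay near the array medians in both groups.

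Among 7 tested dendritic cell genes 4 were lower and 1 higher, the median was −3.10, and mean levels ran from 3.59 to 3.63 in GFP_plus and from 5.37 to 5.51 in GFP_min. Cd209a, Irf4 and Siglech passed the level filter through their GFP_min arrays alone, which favours lower calls. With the level filter on all 6 arrays 1 gene was lower and 1 higher. Cd209a, a lectin of monocyte-derived dendritic cells, was at least 19.0-fold lower (limma adjusted p = 1.38e-07) and Irf4 at least 6.20-fold lower (1.30e-07), both below the array medians in GFP_plus. Flt3, a growth factor receptor, fell by 3.67 (1.43e-07) and Tcf4, a transcription factor of plasmacytoid dendritic cells, fell by 3.10 (1.05e-07). The gene that was higher, named after its value was seen, is Itgax, which encodes CD11c, an integrin chain that other myeloid cells carry too, with 6.17, 6.19 and 6.61 in GFP_plus, against 4.61, 4.42 and 4.55 in GFP_min (1.80, SE 0.16, limma adjusted p = 1.40e-05).

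Of 13 tested neutrophil genes, set beside Ms4a3, 8 were higher and 0 lower by limma (0 lower at an unadjusted p under 0.05), with a median of 0.30. Their mean level per array ran from 13.05 to 13.14 in GFP_plus and from 12.52 to 12.57 in GFP_min. Mpo, Ctsg and Elane, proteins of the first granules, rose by 1.49 (limma adjusted p = 1.42e-08), 1.31 (1.78e-07) and 1.72 (4.76e-07), and the receptor gene Csf3r by 0.71 (2.22e-06). The 5 genes that did not pass, named after their values were seen, are S100a8, S100a9, Camp, Ltf and Ngp. Their differences ran from −0.026 to 0.074. With poly-A centring 5 neutrophil genes were called higher and 5 lower.

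Basophil, mast cell and eosinophil genes, the setting in which Ms4a2 is known, were higher for 7 of 8 tested and lower for 0 by limma (0 lower at an unadjusted p under 0.05), with a median of 1.54. Cpa3 and Fcer1a passed the level filter through their GFP_plus arrays alone, which favours higher calls. With the level filter on all 6 arrays 5 genes were higher and 0 lower. Their mean per array ran from 5.51 to 5.61 in GFP_plus and from 3.67 to 3.74 in GFP_min. The basophil protease gene Mcpt8 rose by 4.21 (limma adjusted p = 7.22e-08), the eosinophil granule gene Prg2 by 3.34 (1.81e-07) and Siglecf by 1.26 (1.63e-05), and Cpa3 was at least 2.23-fold higher (2.98e-06). Whether such cells account for the Ms4a2 signal was not tested.

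Of 7 tested B cell genes, the setting of Ms4a1, 1 was lower and 0 higher by limma (2 higher at an unadjusted p under 0.05), with a median of 0.11 and mean levels of 4.12 to 4.13 in GFP_plus and 4.05 to 4.16 in GFP_min. Cd79b, which signals for the B cell receptor, fell by 0.71 (adjusted p = 0.0102, lost with ribosomal centring), and Cd79a was 3.03 ± 0.05 in GFP_plus and 3.18 ± 0.15 in GFP_min (adjusted p = 0.319). Ebf1 was 3.80 ± 0.05 in GFP_plus and 3.39 ± 0.35 in GFP_min (0.0715), and Bank1 stood 0.32 above GFP_min in GFP_plus (SE 0.13, adjusted p = 0.0722).

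Of 7 tested T and NK cell genes, the setting in which Ms4a4b was described, 2 were lower and 0 higher by limma (1 higher at an unadjusted p under 0.05), with a median of 0.12 and mean levels of 3.75 to 4.01 in GFP_plus and 4.06 to 4.27 in GFP_min. Gzma, a granzyme, fell by 1.90 (limma adjusted p = 0.000169) and the NK receptor gene Klrd1 fell by 0.84 (0.000613, lost with ribosomal centring). Cd4 was 3.18 ± 0.05 in GFP_plus and 2.94 ± 0.13 in GFP_min (0.0862), and Cd8a 3.92 ± 0.11 in GFP_plus and 3.66 ± 0.05 in GFP_min (0.101). Of the 2 tested red cell and megakaryocyte genes, Itga2b was at least 1.16-fold higher (0.0180), a call lost without GFP_plus replicate a, without GFP_min replicate a and with poly-A centring, and Pf4 was 3.19 ± 0.39 in GFP_plus and 2.78 ± 0.13 in GFP_min (0.0841). Itga2b passed the level filter through its GFP_plus arrays alone.

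The genes whose patterns lay nearest to 2 members were looked up among 19099 tested probe sets of other genes, by the root mean square distance over the 6 arrays after each was centred on its own mean. Since every such pattern is dominated by the same contrast, this is a description. Nearest to Ms4a4c (1420671_x_at) were Nxpe4 (distance 0.28, 3.37 in GFP_plus and 10.05 in GFP_min), Ptpro (0.29, 3.76 and 10.78) and Hpgd (0.32, 3.20 and 9.78). Nearest to Ms4a3 were Clec4n (0.063, 7.99 in GFP_plus and 6.72 in GFP_min), Slco4a1 (0.067, 8.0 and 6.61) and Ctsg (0.079, 11.65 and 10.33). Ctsg encodes a granule protease, Hpgd a prostaglandin-degrading enzyme and Ptpro a receptor tyrosine phosphatase.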

How the data were processed

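Total RNA (100 ng) was labelled by a 3' IVT kit and hybridized to Affymetrix arrays, per the labels. The authors deposited log2 expression values for 45101 probe sets and 6 arrays, made with GCRMA per the submitters' processing notes; no version or setting is given in the sources used here. The log2 scale was read from the range of the deposited values. Groups and replicate letters come from the titles.

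Symbols came from the platform annotation (34958 probe sets with 1, 932 with several, 9160 with none given, besides 64 controls), and the IDs of 34754 were found in RefSeq's GRCm38.p6 table. GFP_plus minus GFP_min was fitted with limma 3.58.1 (R 4.3.3, lmFit, eBayes with an intensity trend) over 22956 probe sets, Benjamini-Hochberg adjusted, threshold 0.05. A gene outside the members was represented by its tested probe set with the highest mean. For a group dimmer than all its array medians, the fold was computed against those medians and is a lower bound. The 3 replicate letters were not used as pairs in the main fit. Deviations of samples sharing a letter correlated at −0.18, −0.30 and −0.22, which cannot show whether such samples came from the same mice.

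The members and lists were chosen with earlier results of these data known. Named by rule were all members, tested relatives, partners and neighbours, up to 4 genes per marker list with the smallest adjusted p, and 3 nearest patterns. Tested on simulated data for this comparison (22956 probe sets, 200 changed), the fit recovered 30% of changes of 0.5 log2, 78% of 1 and 100% of 2. In the real arrays 4971 probe sets were called higher and 5260 lower. With so few changed in the simulation its adjusted threshold is stricter, so these shares do not give the recovery in the real arrays. Figures used matplotlib 3.10.9.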

Additional observations from a re-analysis of the deposited data

How the results depend on the processing

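With 3 arrays a group, precision is limited, and values below the array medians have little resolution. No member difference of 1 log2 or more changed sign under 15 other settings, but their size and the lack of overlap left little room for that. The centrings shift a difference by 0.53 log2 at most, and leaving out 1 array cannot reverse groups that do not overlap. Over all members and settings, 213 differences moved by less than the replicate SD and 42 by more. The 213 include settings that leave a difference of group means unchanged by construction. These are the changed level filters, the fit without an intensity trend and the replicate block. The median of the member differences (−4.33) was −4.12, −3.80 and −4.73 with centring on tested probe sets, ribosomal protein genes and poly-A controls, which shift every value. It was −1.26 without probe sets ending in _s_at or _x_at and −3.54 with the mean of a gene's probe sets, settings that drop or merge probe sets. Leaving out 1 array gave −4.42 to −4.10. With the replicate block 3844 probe sets were called higher and 4547 lower, and the member median was −4.33, which the block cannot change. All other counts below are of genes, and their causes were not tested beyond what each setting does.

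With median centring 9734 probe sets were called higher. So were 6 partner, 13 neutrophil, 4 B cell, 3 T and NK cell, 2 dendritic cell and 2 red cell or megakaryocyte genes. With ribosomal centring 16314 probe sets were higher and 2022 lower. Then 2 relatives, 6 partner, 1 monocyte, 13 neutrophil, 6 B cell, 5 T and NK cell, 3 dendritic cell and 2 red cell or megakaryocyte genes were higher, and 0 B cell, 1 T and NK cell and 3 neighbouring genes lower. With poly-A centring 1089 probe sets were higher and 11685 lower. Then 1 partner, 1 tissue macrophage, 5 neutrophil, 0 red cell or megakaryocyte and 0 neighbouring genes were higher, and 4 partner, 5 neutrophil and 3 B cell genes lower.

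The level filter on all 6 arrays, which drops genes dim in 1 group, left 0 relatives higher and 1 lower, 1 T and NK cell and 1 dendritic cell gene lower, and 0 red cell or megakaryocyte and 0 neighbouring genes higher. Array weights made 1 B cell, 1 T and NK cell and 2 red cell or megakaryocyte genes higher, and quantile normalization 2 B cell genes and 1 T and NK cell gene. Leaving out 1 array gave 0 to 1 B cell, 0 to 1 T and NK cell and 0 to 2 red cell or megakaryocyte genes higher. The B cell gene appeared without GFP_min replicate b (Bank1) or c (Ebf1).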
